A study of Caenorhabditis elegans with 10 samples.

Results

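The neuromuscular junction genes described here are 10 genes that C. elegans uses to excite and relax its body wall muscle. They were chosen by gene symbol: the muscle acetylcholine receptor subunit genes unc-29, unc-38, unc-63, lev-1 and acr-16, the GABA receptor gene unc-49, the acetylcholinesterase genes ace-1 and ace-2, and cha-1 and unc-17, which make acetylcholine and load it into vesicles. All 10 were found among the 22554 genes listed in the deposited tables, and all 10 were listed at both times. RNA-seq compared the GMC101 strain, which carries human Aβ1-42 under the unc-54 promoter, a body wall muscle promoter, with an unc-54 3′ end, together with an mtl-2-driven GFP marker, with the CL2122 strain, which carries the unc-54 vector without Aβ and the same kind of GFP marker. Whole worms of both strains were shifted to a warmer temperature as young adults for 8 h or 24 h. The study used this shift to induce Aβ, and the labels of the GMC101 samples call it Aβ induction. GEO's labels name 10 samples (at 24 h 3 of each strain, at 8 h 2), but the deposited tables hold 1 value per gene, strain and time, and how samples were combined is not given in the sources used here.

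At the worm neuromuscular junction, cholinergic motor neurons make acetylcholine with choline acetyltransferase and release it onto muscle, where it opens ligand-gated cation channels and the muscle contracts. Muscle has a levamisole-sensitive receptor, built from different subunits, and a nicotine-sensitive receptor, built from ACR-16 alone. GABA motor neurons open the chloride channel UNC-49 on the opposite side of the body, so that the muscle there relaxes. Acetylcholinesterases end the signal by splitting acetylcholine, and sensitivity to the cholinesterase inhibitor aldicarb and to levamisole is a classical readout of this synapse.

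The values are read counts that the authors scaled between the strains of a table (normalized counts), from which whole reads were recovered. The recovered reads per column summed to between 20533036 (GMC101, 8 h) and 25283088 (GMC101, 24 h). With 1 value per strain there is no spread between replicates, so no difference below has a replicate check and no p-value is given. Each log2 fold change (GMC101 over CL2122, of the normalized count plus 1) carries a 95% counting interval, obtained from an exact Clopper-Pearson interval for the part of a gene's reads that came from GMC101, and it covers counting error only. A gene was called when it was past 2-fold, a log2 value above 1 or below -1. The labels and the deposited tables name no batch, but the study's sheet title for the 8 h comparison calls it a second batch and that for 24 h does not, and time cannot be told apart from batch. For this reason each strain difference was taken inside 1 table. The labels give the stage as L1, whereas vit-2, a yolk protein gene of adult hermaphrodites, held 295149 to 456688 normalized counts in every column.

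At 24 h, 1 of the 10 genes, unc-38, was lower in GMC101 past 2-fold and none was higher. Among the 16092 genes whose mean reached 10 normalized counts, 12% were lower past 2-fold and 9.12% higher, so a count of 1 in 10 is close to the background. At 8 h none of the 10 genes was past 2-fold, where 3.92% of 14807 genes were lower and 2.13% higher. The median log2 fold change of the 10 genes was -0.20 at 8 h and -0.016 at 24 h, beside 0.0045 and -0.00040 for all genes. All 10 genes passed the minimum of 10 at both times. Apart from unc-38 and unc-49, every one of the 10 genes had a counting interval that included 0 at both times.

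**Figure D1:**
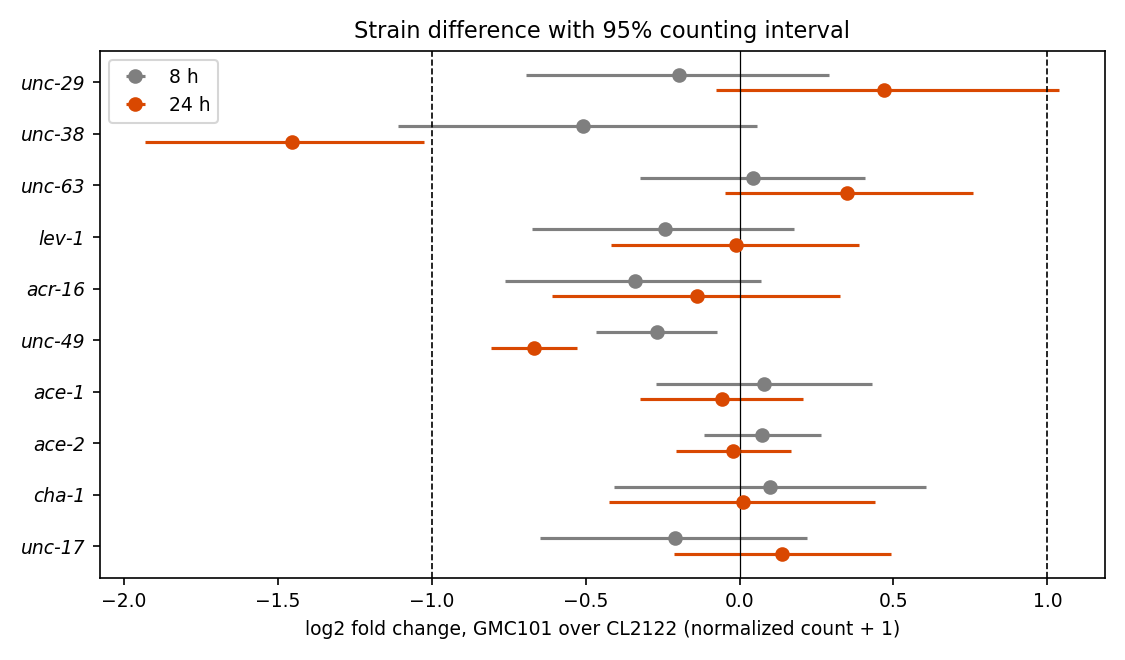
Strain difference of the 10 genes at 8 h (gray) and 24 h (orange). Points are log2 fold changes of GMC101 over CL2122 from the normalized counts plus 1, bars are 95% counting intervals, and dashed lines mark 2-fold. At 24 h unc-38 lies at -1.45 and unc-49 at -0.67, and the other intervals cross 0.

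The unc-38 gene (WBGene00006774, chromosome I from 4897620 to 4900977, minus strand) encodes an alpha-type subunit of the levamisole receptor. It had 44.5 normalized counts in GMC101 against 63.8 in CL2122 at 8 h, and 59.0 in GMC101 and 163 in CL2122 at 24 h. Thus 3 of the 4 columns were near each other and CL2122 at 24 h stood above them, across tables that were scaled separately for each time. The log2 fold change at 24 h was -1.45, and its counting interval, -1.93 to -1.03, lies past 2-fold on its whole length, from 56 reads against 172. At 8 h it was -0.51, and the interval of -1.11 to 0.057, from 43 reads against 66, includes 0. Of all genes tested at 24 h, 6.003% were as low as unc-38 or lower. In the edgeR exact test on the recovered reads, which needs an assumed biological coefficient of variation, unc-38 was the only one of the 10 genes called at 24 h with 0.1 or 0.2, and none was called with 0.4. This test uses the same reads as the fold change and is no separate check of it.

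The subunits of the levamisole receptor act together in muscle, but whole-worm reads do not show which cells they came from. A subunit gene's share of the summed reads of these genes within a column does not depend on how libraries are scaled. In CL2122 at 24 h unc-38 took 36.3% of the reads of unc-29, unc-38, unc-63, lev-1 and lev-8, the fifth subunit gene (exact binomial 95% interval 32.0% to 40.8%, 172 of 474 reads). In GMC101 at the same time the share was 14.97%, with an interval of 11.5% to 19%. At 8 h it was 12.04% in GMC101 and 15.7% in CL2122, with overlapping intervals of 8.86% to 15.9% and 12.4% to 19.6%. The share in CL2122 at 24 h therefore lay above the other columns, whose intervals overlap each other. The shares are parts of the same total, so a higher unc-38 share lowers the others by construction. At 24 h the unc-29 share was 10.8% in CL2122 (8.12% to 13.9%) and 17.1% in GMC101 (13.4% to 21.3%), with overlapping intervals. For unc-63 it was 20.9% (17.3% to 24.8%) and 30.5% (25.9% to 35.4%), and for lev-1 23.6% and 26.7%. The lev-8 share was 8.44% to 10.9% over the 4 columns.

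**Figure D2:**
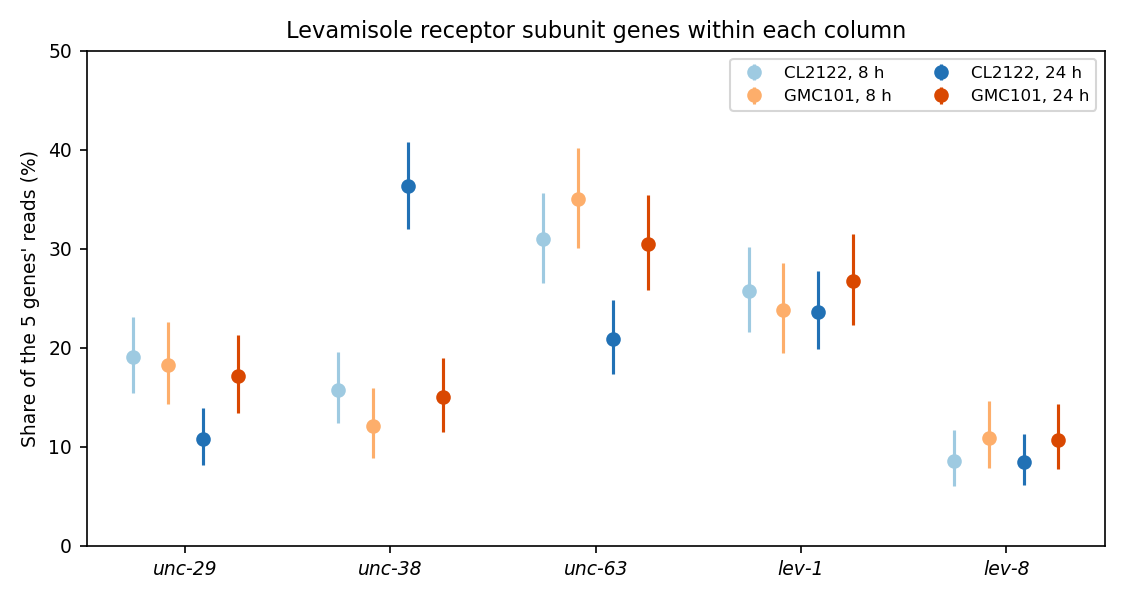
Share of each levamisole receptor subunit gene among the summed reads of the 5 genes, in percent, in each of the 4 deposited columns. Bars are exact binomial 95% intervals and cover counting error only. The unc-38 share of 36.3% in CL2122 at 24 h stands above 12.04% to 15.7% in the other columns.

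The other levamisole receptor subunit genes lay on either side of 0. The unc-29 gene (WBGene00006765, chromosome I from 8897613 to 8901435) encodes a non-alpha subunit without which levamisole has little effect. It had 67.3 normalized counts in GMC101 against 77.3 in CL2122 at 8 h, and 67.4 and 48.4 at 24 h. Its log2 fold change at 24 h was 0.47, with an interval of -0.075 to 1.04, so the reads allow both no difference and a 2-fold one. For unc-63, an alpha-type subunit gene (WBGene00006797, chromosome I from 5141675 to 5149226), the normalized counts were 129 in GMC101 and 126 in CL2122 at 8 h, and 120 and 94.0 at 24 h. The difference was 0.043 at 8 h and 0.35 at 24 h on the log2 scale, and both intervals include 0. The lev-1 gene (WBGene00002974, chromosome IV from 13174157 to 13179457) encodes a non-alpha subunit. It had 88.0 normalized counts in GMC101 against 104.3 in CL2122 at 8 h, and 105 and 106 at 24 h, when its log2 fold change was -0.013 with an interval of -0.42 to 0.39. These intervals keep lev-1 and unc-63 within 2-fold at both times.

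The acr-16 gene (WBGene00000055, chromosome V from 8561216 to 8564345), which encodes the nicotine-sensitive receptor, was lower in GMC101 at both times, though by no more than the counting error. Its normalized counts were 89.02 in GMC101 and 113 in CL2122 at 8 h, and 75.9 and 83.5 at 24 h. The log2 fold changes were -0.34, with an interval of -0.76 to 0.069, and -0.14, with an interval of -0.61 to 0.33. Relative to the summed reads of the levamisole subunit genes and acr-16, the acr-16 share was 19.4% in GMC101 and 21.8% in CL2122 at 8 h, and 16.1% and 15.7% at 24 h.

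The unc-49 gene (WBGene00006784, chromosome III from 10520676 to 10532705) was lower in GMC101 at both times, past counting error but within 2-fold. It encodes the GABA receptor of muscle, and its alternative transcripts give different subunits, which 1 value per gene does not separate. It had 392 normalized counts in GMC101 against 472 in CL2122 at 8 h, and 696 and 1106 at 24 h. Both strains were thus higher at 24 h than at 8 h, CL2122 more so, across tables that were scaled separately for each time. The log2 fold change was -0.27 at 8 h, with an interval of -0.47 to -0.072, and -0.67 at 24 h, with an interval of -0.81 to -0.53. Of all tested genes, 19.6% were at least as low at 24 h. Among the reads of the muscle receptor genes, those for the levamisole subunits, acr-16 and unc-49, the unc-49 share was 46.1% in GMC101 and 47.7% in CL2122 at 8 h, with overlapping intervals. At 24 h it was 59.7% in GMC101 (56.8% to 62.6%) and 67.5% in CL2122 (65.2% to 69.7%), and these intervals do not overlap.

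The acetylcholinesterase genes differed little between the strains. The ace-1 gene (WBGene00000035, chromosome X from 16367229 to 16373789), which is expressed in body wall muscle, had 142 normalized counts in GMC101 against 134 in CL2122 at 8 h, and 237 and 247 at 24 h. Its log2 fold change was 0.078 at 8 h and -0.058 at 24 h, the latter with an interval of -0.32 to 0.20. The ace-2 gene (WBGene00000036, chromosome I from 3302001 to 3307587), which is expressed mainly in neurons, had 476 and 452 normalized counts at 8 h, and 470 and 476 at 24 h, in GMC101 and CL2122. Its log2 fold change at 24 h was -0.020, and the interval of -0.21 to 0.17 is the narrowest among the 10 genes but for that of unc-49. Within each column ace-2 held most of the reads of the cholinesterase genes ace-1, ace-2, ace-3 and ace-4. Its share was 65.5% in GMC101 and 65.9% in CL2122 at 8 h, and 53.6% and 52.6% at 24 h, while the ace-1 share was 19.5% and 19.6% at 8 h and 27.04% and 27.3% at 24 h. The makeup of the cholinesterase reads thus differed between the times, alike in both strains, while the ace-2 intervals of the strains overlapped at each time.

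The genes of the nerve side were also close between the strains. The cha-1 gene (WBGene00000481, chromosome IV from 3613934 to 3624697, minus strand) encodes choline acetyltransferase, and unc-17 (WBGene00006756, chromosome IV from 3618259 to 3624697, minus strand), the vesicular acetylcholine transporter, lies within it. Both genes begin at the same position, and 66 exon bases are common to both in the Ensembl annotation of WBcel235, so a few reads cannot be given to one of them alone. There were 70.4 normalized counts of cha-1 in GMC101 and 65.7 in CL2122 at 8 h, and 92.7 and 92.1 at 24 h. For unc-17 GMC101 had 85.9 and CL2122 99.5 at 8 h, and GMC101 had 143 and CL2122 130 at 24 h. The log2 fold changes at 24 h were 0.010 for cha-1, with an interval of -0.42 to 0.44, and 0.14 for unc-17, with an interval of -0.21 to 0.49. Per length, cha-1 stood at 0.6002 to 0.760 of unc-17 over the 4 columns. Of the reads of both genes, cha-1 took 45.0% in GMC101 and 39.8% in CL2122 at 8 h, and 39.3% and 41.5% at 24 h, all with overlapping intervals.

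Levels were compared between genes per length, as TPM, reads per base of gene scaled to the same total in each column. All 10 genes were low, between 1.51 and 12.8 TPM, and together they took 0.00746% to 0.0109% of the reads. At 8 h ace-2 was highest in both strains, with 12.4 TPM in GMC101 and 11.5 in CL2122, and its intervals overlapped those of no other of the 10 genes. Next came unc-49, with 4.63 and 5.46 TPM, and unc-63, with 4.57 and 4.34, whose intervals overlap in both strains. The genes at the lower end were cha-1, with 1.95 and 1.78 TPM, unc-38, with 1.51 and 2.13, and unc-29, with 2.36 and 2.66, and these did not separate from each other in counting error. At 24 h unc-49 and ace-2 were highest in CL2122, with 12.8 and 12.1 TPM and overlapping intervals. In GMC101 the order was ace-2 with 10.02 TPM and then unc-49 with 6.75, and these counting intervals do not overlap. The order rests on the deposited gene lengths, 2208 bases for ace-2 and 4855 for unc-49. The WBcel235 annotation gives 2987 and 4110 exon bases. Levels with those lengths were not computed, and the counting intervals do not cover this difference, so the order of these genes at 24 h is not settled. In CL2122 unc-38 moved from 2.13 TPM at 8 h to 5.44 at 24 h, beside ace-1 at 5.47. In GMC101 unc-38 had the lowest value among the 10 genes at both times, with 1.51 and 1.65 TPM. At 24 h its interval in GMC101, 1.25 to 2.14, overlapped those of unc-29, acr-16, cha-1 and lev-1, so this rank is not resolved.

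**Figure D3:**
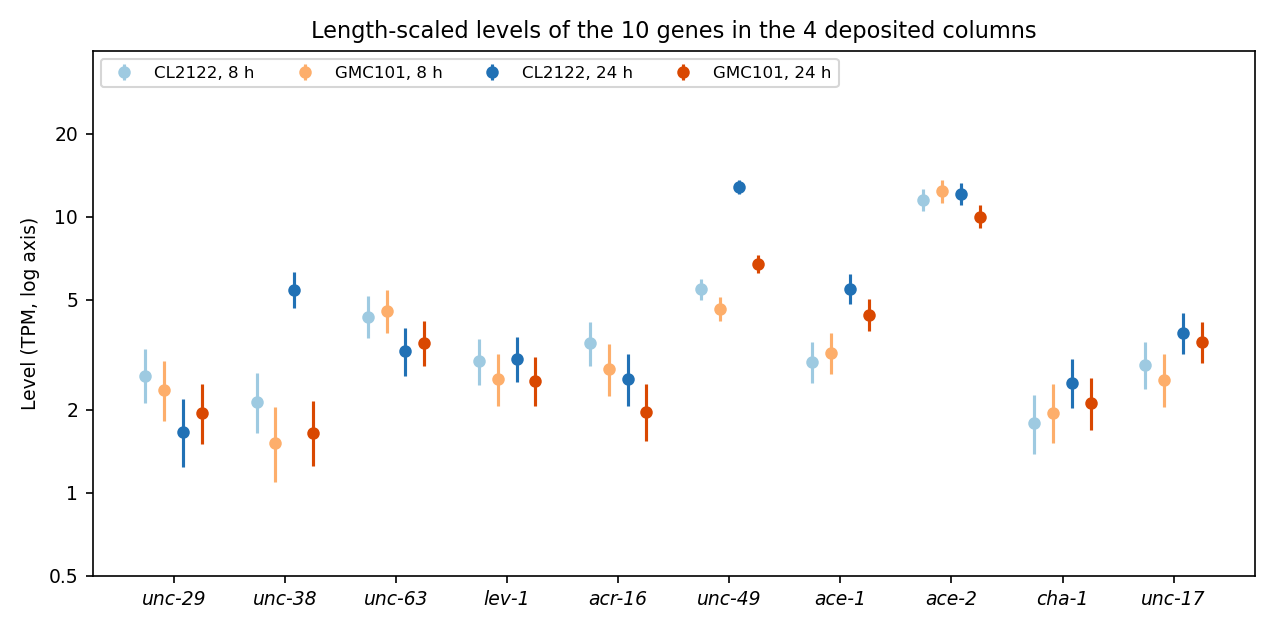
Level of each gene per length in the 4 deposited columns, in TPM on a log axis, with exact Poisson 95% intervals as bars. TPM is relative to all reads of a column, so the strain differences in the text rest on the normalized counts. In CL2122 at 24 h unc-38 (5.44 TPM) and unc-49 (12.8 TPM) stand above their other columns.

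The times were set side by side in CPM, a gene's reads scaled by the total of its column, which joins tables that the authors normalized separately. From 8 h to 24 h unc-38 went from 2.93 to 6.997 CPM in CL2122 and from 2.09 to 2.21 CPM in GMC101. The unc-49 gene went from 21.7 to 47.4 CPM in CL2122 and from 18.5 to 26.1 CPM in GMC101. By contrast unc-63 and acr-16 stood lower at 24 h in both strains, at 74.1% and 67.99% of their 8 h CPM in GMC101 and at 69.8% and 68.9% in CL2122. The strain difference at 24 h minus that at 8 h was -0.94 on the log2 scale for unc-38, with a counting interval of -1.65 to -0.24, and -0.40 for unc-49, with an interval of -0.64 to -0.16. For the other 8 genes this interval included 0. The widest of these reached from -0.043 to 1.38, for unc-29.

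Beyond the 10 genes, lists of other junction genes were read in the same way. Of the 10 genes listed for receptor assembly and trafficking, 9 were found by symbol and none was past 2-fold at either time, with a median log2 fold change of 0.066 at 8 h and 0.15 at 24 h. They include ric-3, the chaperone needed to fold nicotinic receptors, with 165 normalized counts in GMC101 and 153 in CL2122 at 24 h and an interval of -0.21 to 0.44. The lev-8 subunit gene had 42.1 and 37.96. In this list 4 of 9 genes had an interval above 0 at 24 h and none had one below. These were, named after their values were seen, unc-50 at 0.36, emc-6 at 0.30, nra-4 at 0.16 and nra-2 at 0.15, all well within 2-fold, and at 8 h only nra-2, at 0.099, had an interval above 0. Of the 11 genes for receptor clustering, none was past 2-fold, and at 24 h 8 lay below 0, with a median of -0.32. At 24 h 5 of these genes had an interval below 0 and none had one above. The matrix and membrane proteins LEV-9 and LEV-10 cluster the levamisole receptor. Their genes had log2 fold changes of -0.32 and 0.070 at 24 h, with intervals that include 0. For oig-4, whose secreted product stabilizes these clusters, the value was -0.97 at 24 h, with an interval of -1.78 to -0.26, from 23 reads against 51. Singled out after their values were seen, nlg-1 (neuroligin, which organizes GABA synapses), nrx-1 (neurexin) and lin-2 (a scaffold protein) were at -0.83, -0.85 and -0.70 at 24 h, with intervals below 0. The cam-1 gene, also named after its values were seen, was at -0.40 at 24 h, with an interval of -0.46 to -0.34, from 3692 reads against 5396. At 8 h nlg-1 and nrx-1 were at -0.072 and 0.30 with intervals that include 0, and lin-2 was at -0.30 with an interval below 0.

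The other acetylcholine receptor subunit genes, many of them neuronal or of unknown partners, spread further than the muscle ones. Of 23 genes, which all reached the minimum at 24 h, 7 were lower and 2 higher in GMC101 past 2-fold, with a median of -0.11. Among all genes at 24 h, 12% were lower past 2-fold and 9.12% higher. In this list 13 intervals include 0, 9 lie below 0 and 1 lies above. Several genes had few reads, such as acr-9 with 8 against 26, and low counts spread further by counting error alone. The 2 genes higher past 2-fold, named after their values were seen, were acr-3, from 14 reads against 6, and acr-19, from 46 against 22. The largest differences were those of acr-17, with 84.3 normalized counts in GMC101 and 350 in CL2122, acr-5, with 20.02 and 77.8, acr-23 (a betaine receptor gene), with 13.7 and 49.4, and acr-9, with 8.43 and 24.7. Their log2 fold changes were -2.04, -1.91, -1.78 and -1.44. Only the intervals of acr-17 and acr-5 lie past 2-fold on their whole length. At 8 h 3.92% of all genes were lower past 2-fold and 2.13% higher. In this list 4 of 18 genes were lower, each from 76 reads or fewer in a column. They were acr-15, eat-2 (a pharyngeal muscle subunit gene), acr-23 and acr-17. The acr-20 gene, named after its values were seen, was higher, from 28 reads against 14. Thus acr-17 and acr-23 were lower past 2-fold at both times. The motor neuron subunit genes acr-2 and acr-12 were at 0.43 and 0.10 at 24 h, with intervals that include 0.

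Among muscarinic receptor and acetylcholine-gated chloride channel genes, none of 10 was past 2-fold at 24 h, and lgc-49 alone of 8 was at 8 h, with 24 reads in GMC101 and 10 in CL2122. Cholinesterase and choline uptake genes showed none either. For ace-3 the normalized counts were 135 in GMC101 and 155 in CL2122 at 24 h, for ace-4 34.8 and 27.5, and for cho-1, which takes choline back into the nerve ending, 138 and 166, each with an interval that includes 0. The remaining gene of this list, snf-6, a transporter gene named after its values were seen, had 1715 in GMC101 and 1186 in CL2122 at 24 h, a log2 fold change of 0.53 with an interval of 0.43 to 0.64. In the GABA list of 11 genes none was past 2-fold. The GABA-synthesizing enzyme gene unc-25 had 404 normalized counts in GMC101 against 276 in CL2122 at 24 h, a log2 fold change of 0.55 with an interval of 0.32 to 0.77. The vesicular GABA transporter gene unc-47 was at -0.999, just inside the limit, from 18 reads against 41. Genes of the GABA synapse thus lay on both sides of 0, unc-25 above and unc-49 and unc-47 below. Of 14 genes for muscle excitation and its coupling to contraction, 12 lay below 0 at 8 h and 10 at 24 h, with medians of -0.10 and -0.15. Past 2-fold at 24 h were sup-9, lower, and sup-10, higher, which encode a potassium channel of muscle and its partner protein.

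**Figure D4:**
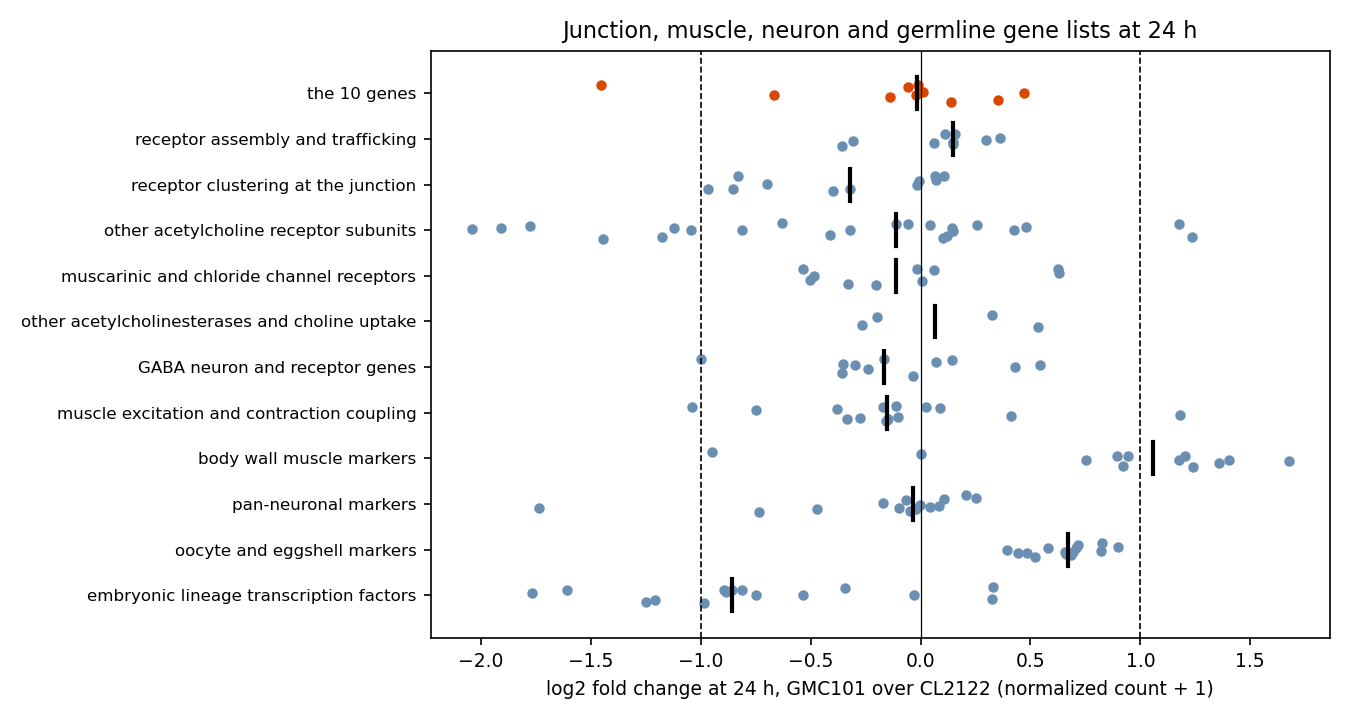
Strain difference at 24 h, as log2 fold change of GMC101 over CL2122, for each gene whose mean reached 10 normalized counts (points) in 12 lists, with the list's median as a black bar and 2-fold as dashed lines. The 10 junction genes center at -0.016, body wall muscle markers at 1.06 and embryonic transcription factors at -0.86.

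In whole worms, fewer cells of a type and less RNA per cell cannot be told apart, so markers of the cells that carry the junction were read beside it. At 24 h, 6 of 12 body wall muscle markers were higher in GMC101 past 2-fold, with a median log2 fold change of 1.06, and their summed level was 4176 CPM in GMC101 and 2176 in CL2122. Of these sums unc-54 alone made 2047 and 1036 CPM. At 8 h the marker sums were 6847 CPM in GMC101 and 8612 in CL2122, so both strains stood lower at 24 h, CL2122 more so. The myosin gene myo-3 had 2633 normalized counts in GMC101 against 1115 in CL2122, a log2 fold change of 1.24. The largest among them were mup-2, unc-27, unc-15 and myo-3, from 1.24 to 1.68. For unc-54 the value was 1.17, but both transgenes carry unc-54 sequence, and their part in its reads was not tested. At 8 h no muscle marker was past 2-fold, and the median was -0.27. None of the markers was at 0 in any column. The summed TPM of the levamisole subunit genes and acr-16 was 4.799 in GMC101 and 4.39 in CL2122 per 1000 TPM of muscle markers at 8 h, and 7.25 and 18.99 at 24 h. Both parts of this ratio differed at 24 h. The marker sum, which includes unc-54, was 1756 TPM in GMC101 and 907 in CL2122. The receptor sum was 12.7 and 17.2 TPM, of which unc-38 made 1.65 and 5.44. Of the muscle markers, hlh-1, the myogenic transcription factor gene that is active in the embryo, singled out after its values were seen, went the other way at 24 h, with 129 normalized counts in GMC101 and 249 in CL2122.

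Neuronal markers centered near 0 at 24 h but lay on both sides of it. Of 14 pan-neuronal markers, 5 had an interval below 0 and 2 had one above. The other 7 had an interval that included 0, as cha-1 and unc-17 did. The summed level of the markers was 813 CPM in GMC101 and 955 in CL2122. At 24 h the median of 14 pan-neuronal markers was -0.035, with rab-3 at 0.25 and snb-1 at 0.045, and only unc-10, the gene of an active zone protein, was past 2-fold, with 177 normalized counts in GMC101 and 592 in CL2122. Adult hermaphrodites also hold oocytes and embryos, and the RNA of genes listed for each differed between the strains at 24 h. All 14 oocyte and eggshell markers were above 0, with a median of 0.67 and a summed level of 13009 CPM in GMC101 and 9248 in CL2122. Of 10 intestine markers, 3 were higher past 2-fold at 24 h and none lower, with a median of 0.59 and values from -0.43 to 2.20. Of the 5 stage markers that reached the minimum, 2 were higher past 2-fold, with a median of 0.63 and values from -0.094 to 3.58. Both lists hold vit-2 and vit-5, so they are not separate from each other. A list of 15 embryonic lineage transcription factors, added after the data were seen, had a median of -0.86 at 24 h, with 13 below 0 and 4 lower past 2-fold, among them tbx-38 at -1.77 and the neurogenic factor genes lin-32 and ngn-1 at -1.25 and -1.21. Their summed level at 24 h was 198 CPM in GMC101 and 242 in CL2122. In each column a single gene made a large part of this sum, with 3549 normalized counts in GMC101 and 2830 in CL2122. At 8 h only 7 of the 15 genes reached the minimum. The part that embryos inside the worms have in the lower unc-38 and unc-49 values of GMC101 was not tested.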

How the data were processed

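RNA of whole GMC101 and CL2122 worms was sequenced from both ends of each fragment. The submitters' processing notes name HISAT2 2.05, StringTie 1.33 and DESeq2, without their roles. Read counter, genome build and the pooling of the 10 labeled samples are not given in the sources used here. The authors deposited 1 table per time, in which each strain has a scaled expression signal per gene. These tables also hold the authors' own log2 fold change, p-value and adjusted p-value columns, which were not used.

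Low signal values were whole multiples of 1 step, and 98.9% to 99.4% of values came out within 0.05 reads of a whole number. Fold changes were computed on log2(normalized count + 1), and a gene was held against the 2-fold limit when its mean reached 10 normalized counts. The columns hold no replicates, so the edgeR quasi-likelihood test could not be fitted. A count test on the recovered reads (edgeR's exact test with an assumed coefficient of variation) serves only as an alternative. With 0.2 it called 45 genes higher and 111 lower at 8 h, and 881 and 1034 at 24 h. These equal the numbers of up- and down-regulated genes that the study reported, so this setting is no independent check of the study's calls. Reads on genes were 20533036 (GMC101) and 22520667 (CL2122) at 8 h, 25283088 and 24583095 at 24 h. At these depths 3 reads correspond to 0.119 to 0.146 CPM, and PCR reads without molecular identifiers are not independent molecules.

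Gene coordinates were copied from the deposited tables, which name no build. Ensembl's WBcel235 annotation holds 21749 of the 21915 identifiers listed at 24 h, each overlapping the deposited position. Whether counting used strand is not given in the sources used here. On the opposite strand, F21F3.4 shares 22 exon bases with unc-38 and F25G6.8 shares 43 with acr-16. At 24 h F21F3.4 stood at 421 normalized counts (GMC101) and 366 (CL2122). The members and lists were chosen with earlier results of these data known. Named genes are the 10 members, 16 fixed genes, and at each time up to 4 genes per list with the largest change past 2-fold. Genes past 2-fold in the intestine and stage lists are left unnamed. Genes named outside this rule were chosen after their values were seen, and the text says so where it names them. Alternatives were total-count scaling, DESeq2 size factors, pseudocounts of 0.5 and 5, other minimums and protein-coding genes alone. Scripts were tested on simulated data. Software was Python 3.11.15 with scipy 1.17.1, numpy 2.4.6, matplotlib 3.10.9 and pandas 2.3.3, and R 4.3.3 with DESeq2 1.42.0 (size factors) and edgeR 4.0.16.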

Additional observations from a re-analysis of the deposited data

Results flagged for a closer look

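The strain difference of 2 of the 10 genes differed between the times by more than counting error. For unc-38 the log2 fold change at 24 h minus that at 8 h was -0.94, and for unc-49 it was -0.40. With 1 value per strain and time, a difference between the times beyond replicate error was not tested, and time and batch cannot be told apart.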

How the results depend on the processing

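No paired analysis was possible because the deposited columns carry no replicate number, and for the same reason no replicate could be left out. Of 80 alternative values for the 10 genes under the scalings and pseudocounts tried, none crossed 2-fold, and 78 stayed within the counting interval. The exceptions were unc-49 at -0.86 and ace-2 at -0.21 with total-count scaling at 24 h. That scaling moved the median of all genes at 24 h by -0.19, the median of the 10 genes to -0.21 and the median difference between the times from 0.058 to -0.16. It also turned cha-1 and unc-17 at 24 h below 0. With it 31.1% of the genes past 2-fold at 24 h were higher in GMC101, against 43.2% with the deposited scaling. Counts of all genes past 2-fold depended on the minimum and on the test. Without a minimum, genes higher in GMC101 numbered 1333 (8 h) and 2582 (24 h), and genes lower 1692 and 4077. A minimum mean of 50 left 89 and 767 higher, and 275 and 1140 lower. The exact test with an assumed coefficient of variation of 0.2 gave 45 and 111 at 8 h, and 881 and 1034 at 24 h. With 0.4 it gave 7 and 9, and 43 and 8, and with 0.1, added after the data were seen, 153 higher at 8 h. The fold limit alone gave 316 and 581 at 8 h, and 1468 and 1929 at 24 h. The cause was not tested beyond what fewer genes or a wider assumed spread bring by construction. Depth limits genes such as unc-29, with 51 to 80 reads per column, whose counting interval at 24 h reaches from -0.075 to 1.04.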
